A study of Mus musculus with 10 samples.

Results

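Imprinted genes that control growth were followed in cells sorted as lymphatic endothelium from the mouse meninges, with and without stress. The group holds 10 genes, H19, Igf2, Igf2r, Meg3, Dlk1, Peg3, Cdkn1c, Plagl1, Mest and Grb10, which were taken by gene symbol from the 55401 genes of the count table. All 10 had a single entry and all 10 passed the filter for testing, as did 14815 genes in all. RNA-seq was performed on 10 libraries. Naive mice, which were not stressed, gave 5 of them, and mice after 6 days of sub-chronic variable stress (SCVS), in which foot shock, tail suspension and restraint alternate, gave the other 5. Every animal in both groups was a wild-type female C57BL/6 mouse 3 months old (C57BL/6J in the methods of the study). Cells were sorted from the dura mater as CD45-CD31+podoplanin+, the surface profile of lymphatic endothelium, after digestion in the presence of actinomycin D, and each library was a pool from 3 to 4 animals. The spread given below is therefore a spread between pools. More than 1 cohort of mice was used without a label of cohort. How the cohorts were spread over the groups is not known, and cohort could not be adjusted for.

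Imprinted genes are read mainly from the allele inherited from a single parent, under the control of DNA methylation laid down in the egg or the sperm. Many of them act on fetal growth, with genes read from the paternal copy often promoting growth and genes read from the maternal copy often restraining it, and a good number are turned down after birth in most tissues. The mice were inbred and the values are counts per gene, so the allele of origin was not measured. In RNA from many cells, fewer cells of a type and less RNA per cell cannot be told apart.

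None of the 10 genes passed a test as higher or lower after SCVS. In edgeR's quasi-likelihood test 0 of the 10 passed an adjusted p of 0.1, against 0% of all genes tested, and 0 of the 10 had an unadjusted p under 0.05, against 3.10% of all genes. DESeq2 called 0 of the 9 to which it gave an adjusted p, which it did not give to Meg3, and 0.769% of all genes. That share is taken over all 14815 genes tested, also those without an adjusted p from DESeq2. Limma voom called 0 of the 10 and 0.0202% of all genes, and edgeR's likelihood ratio test called 0 of the 10 and 0.256% of all genes. At shares this low, 0 of 10 does not set the imprinted genes apart from the rest. The groups overlapped in counts per 1000000 counts of the library (CPM) for each of the 10 genes, while 0.628% of all genes had groups that did not overlap. In the two-sided exact permutation test of mean CPM, 0 of the 10 had a p under 0.05, against 3.79% of all genes. With 5 libraries against 5 that test can reach 0.00794, and the lowest value among the 10 was 0.143, for H19. After edgeR's Benjamini-Hochberg adjustment over all genes each of the 10 had an adjusted p of 1.00. These tests do not show that the levels were equal, since the standard errors of the log2 fold changes, always given as SCVS over naive, ran from 0.57 for Grb10 to 2.20 for Meg3.

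The libraries varied widely for the imprinted genes, as they did for all genes tested. The coefficient of variation of CPM was taken over the 10 libraries with both groups together. Its median was 0.990 for the imprinted genes and 0.928 for all genes tested, and 6 of the 10 lay above the latter. This does not set the imprinted genes as a group apart from the rest. Grb10 was the most even at 0.616, and Meg3 was the most uneven at 2.79, a value higher than that of 99.2% of the genes tested. Only Cdkn1c and Grb10 had more than 3 counts, the floor used here, in every library.

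**Figure D1:**
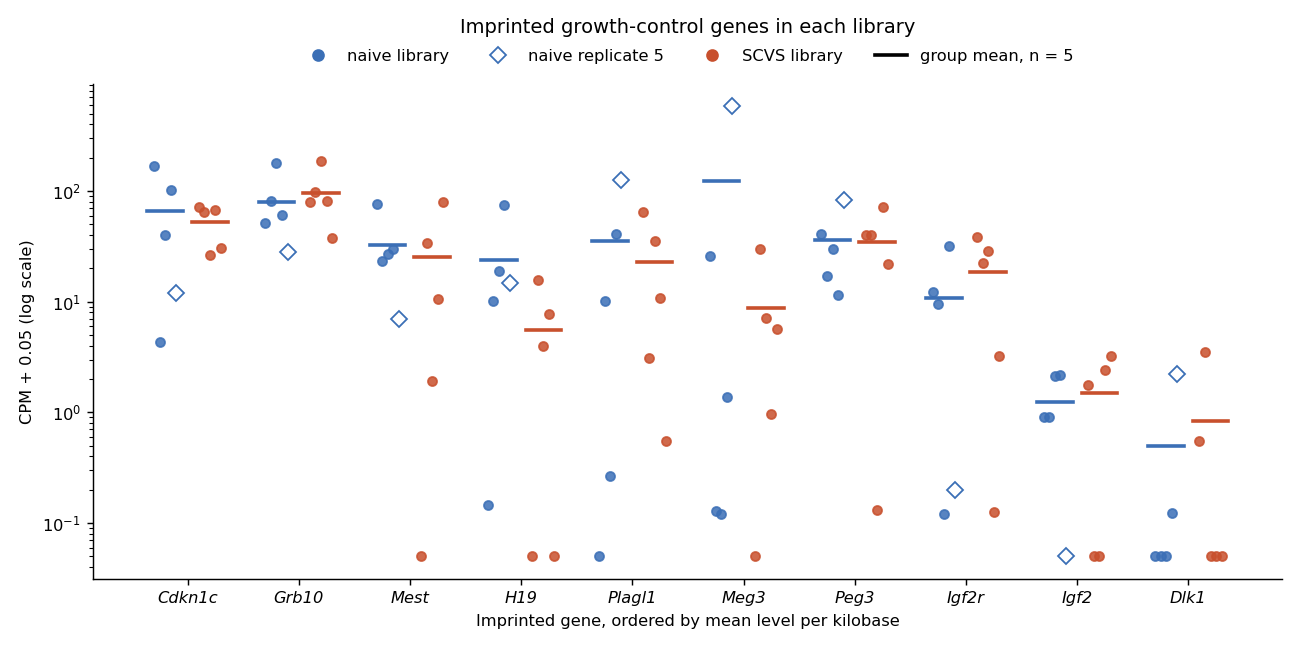
Each point is 1 library, with CPM plus 0.05 on a log axis, for the 10 imprinted genes in naive and SCVS libraries, and horizontal bars are group means (n = 5 each). The groups overlap for every gene, and the open diamond, naive replicate 5, holds the highest Meg3 value at 583 CPM.

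Total counts per library lay between 9984743 and 14094155, so that 3 counts were worth 0.213 to 0.300 CPM. Between 13984 and 15988 genes had a count in a library. The summed CPM of 7 blood endothelial markers exceeded that of 7 lymphatic markers in all 10 libraries (313 to 10258 against 60.8 to 3074 CPM). These sums alone do not bear out the label of lymphatic endothelium, but they join different genes without correction for length. By the mean log2(CPM + 1) of each list, the blood endothelial markers were also higher in every library but naive replicate 5. In those libraries they ran from 8.69 to 10.01, against 1.90 to 7.69 for the lymphatic markers. Naive replicate 5 had 3.59 for the lymphatic and 2.76 for the blood endothelial markers. Naive replicate 5 stood apart from the rest. Its summed CPM over 6 pan-endothelial markers was 542, against 4404 to 7837 in the other 9 libraries, and its sum over 8 neuronal and glial markers was 3524, the highest of all 10, with all 8 above the floor. The lymphatic markers Prox1, Lyve1 and Pdpn were at or near 0 in naive replicate 1, whose summed lymphatic level over 7 markers was 60.8 CPM, against 185 to 3074 in the others. Values without naive replicate 5 are given beside the genes that it carries.

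To set the genes beside each other, CPM were divided by the length of annotated exon. Cdkn1c was the highest, at 30.5 ± 25.5 CPM per kb (SD, n = 10), and Grb10 followed with 9.60 ± 5.91 CPM per kb. Mest (7.35 ± 7.24 CPM per kb) and H19 (6.12 ± 9.31 CPM per kb) came next. Plagl1 had 3.99 ± 5.52 CPM per kb, Meg3 3.62 ± 10.1 CPM per kb, Peg3 2.67 ± 1.93 CPM per kb and Igf2r 1.55 ± 1.54 CPM per kb. The place of Meg3 rests on naive replicate 5, at 32.25 CPM per kb, since every other library had at most 1.65 CPM per kb. Igf2 (0.240 ± 0.207 CPM per kb) and Dlk1 (0.110 ± 0.213 CPM per kb) were the lowest. No gene in this order differed from the next by more than the larger of their SDs. These SDs describe single libraries and not the error of a mean, and the order of neighbours was not tested.

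**Figure D2:**
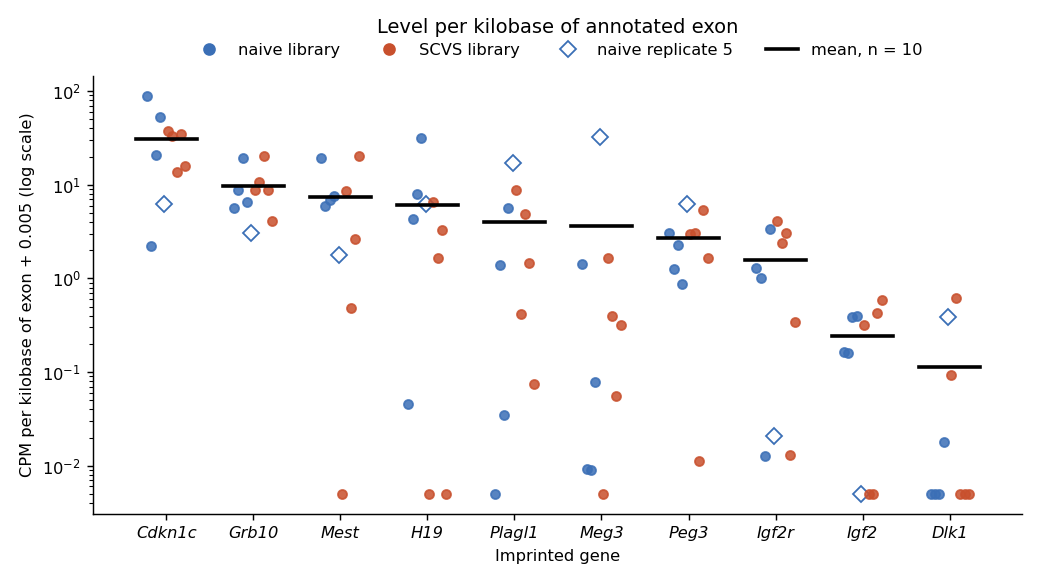
Level of each imprinted gene per kilobase of annotated exon (CPM per kb plus 0.005, log axis) in the 10 libraries, with the mean over all 10 as a bar. Cdkn1c has the highest mean, 30.5 CPM per kb, Igf2 and Dlk1 the lowest, and the points of neighbouring genes overlap. Meg3 reaches 32.25 CPM per kb in naive replicate 5 and at most 1.65 elsewhere.

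Igf2, H19 and Igf2r govern the supply of insulin-like growth factor 2. Igf2 encodes the growth factor itself and is read from the paternal copy, H19 is the maternally read noncoding RNA that shares its enhancers, and Igf2r is a receptor that carries the factor to the lysosome for degradation. H19 had the largest count of the 3 in any library and Igf2 had the lowest mean level. The microRNAs cut from H19 and Igf2 are shown because they lie inside these genes, in the same orientation, with the seed (bases 2 to 8) in capitals. They come from RefSeq (GRCm38.p6).
mmu-miR-675-5p (H19): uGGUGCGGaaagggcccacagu
mmu-miR-675-3p (H19): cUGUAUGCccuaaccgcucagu
mmu-miR-483-5p (Igf2): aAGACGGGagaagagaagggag
mmu-miR-483-3p (Igf2): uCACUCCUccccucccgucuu

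The 4 seeds differ from each other. The entries Mir675 and Mir483 held 0 counts in all 10 libraries, and no small-RNA libraries were made, so the mature forms were not measured.

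H19 (ENSMUSG00000000031, chr7:142575530-142578146, GRCm38) had 0.0960, 10.1, 19.03, 74.2 and 14.6 CPM in naive replicates 1 to 5. In SCVS replicates 1 to 5 it had 0, 15.6, 3.89, 7.71 and 0 CPM. Naive replicate 4 alone held 52.0% of all its counts, and the low naive library, with a single count, lay among the low SCVS libraries. The means were 23.6 ± 29.1 CPM in naive and 5.44 ± 6.52 CPM in SCVS (SD, n = 5 each), and the log2 fold change was -2.19 (SE 1.89). The exact permutation p was 0.143. The estimate stayed below 0 in all 18 alternative fits, from -3.37 to -1.12, without an adjusted p under 0.536 in any of them. The value nearest to 0, -1.12, came from the fit without naive replicate 4.

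Igf2 (ENSMUSG00000048583, chr7:142650768-142666816) had 0.864, 0.861, 2.08, 2.14 and 0 CPM in the naive replicates. The SCVS replicates had 1.70, 0, 0, 2.34 and 3.20 CPM, so the libraries with 0 counts fell in both groups. The most counts in any library were 32. The means of 1.19 ± 0.910 and 1.45 ± 1.43 CPM differed by less than their spread (log2 fold change 0.29, SE 1.70, exact permutation p = 0.738). Igf2as lies on the opposite strand over Igf2, and since the use of strand in counting is not stated, reads from the overlap cannot be assigned.

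Igf2r (ENSMUSG00000023830, chr17:12682406-12769706) was unevenly detected. It had 12.3, 9.48, 0.0716, 31.8 and 0.150 CPM in the naive replicates and 38.2, 22.3, 28.7, 0.0756 and 3.20 CPM in the SCVS replicates. Naive replicates 3 and 5 and SCVS replicate 4 had 1 or 2 counts each, SCVS replicate 5 had 32, and SCVS replicate 1 had the most, 539. The means were 10.8 ± 12.99 CPM and 18.5 ± 16.4 CPM, with a log2 fold change of 0.74 (SE 1.66) and an exact permutation p of 0.421. The estimate stayed above 0 in all 18 alternatives, from 0.30 to 2.15. Airn, the noncoding RNA read from the opposite strand of Igf2r and known for silencing its paternal copy in cis, had more than 3 counts in all 10 libraries, at 20.2 to 76.7 CPM in naive and 8.92 to 49.0 CPM in SCVS (log2 fold change -0.32). Reads from the stretch that Airn and Igf2r share may have been counted for either.

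Grb10 and Cdkn1c are restraints on growth read mainly from the maternal copy. Grb10 is an adaptor that binds the insulin and IGF receptors and dampens their signal, and in neurons it is read from the paternal copy through other promoters. Cdkn1c encodes p57Kip2, an inhibitor of cyclin-dependent kinases. Both were present in every library.

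Grb10 (ENSMUSG00000020176, chr11:11930499-12037428) had 51.2, 80.4, 177.7, 60.1 and 28.1 CPM in the naive replicates. It had 80.1, 97.3, 187 and 80.9 CPM in SCVS replicates 1 to 4 and 37.2 CPM in SCVS replicate 5. The highest library in each group was replicate 3, the lowest was replicate 5, and no library had under 371 counts. The group means were 79.5 ± 58.01 CPM and 96.5 ± 55.3 CPM, with a log2 fold change of 0.24 (SE 0.57, exact permutation p = 0.571). Grb10 had the smallest standard error of the 10 genes.

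Since Grb10 was the most evenly detected gene and starts at more than 1 place, a pair of its start regions is shown, from RefSeq (GRCm38.p6, minus strand, 250 bases before to 50 after the start), with every CG, the pair of letters that carries DNA methylation, in capitals. CG reads the same on both strands and its copies do not overlap.
Grb10, chr11:12037371-12037670: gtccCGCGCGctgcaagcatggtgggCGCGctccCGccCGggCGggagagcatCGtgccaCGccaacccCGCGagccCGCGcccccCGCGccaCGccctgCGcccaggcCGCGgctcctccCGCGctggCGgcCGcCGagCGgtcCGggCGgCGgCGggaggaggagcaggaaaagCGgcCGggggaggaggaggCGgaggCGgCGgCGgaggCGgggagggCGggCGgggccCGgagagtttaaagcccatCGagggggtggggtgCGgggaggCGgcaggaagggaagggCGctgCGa
Grb10, chr11:12027922-12028221: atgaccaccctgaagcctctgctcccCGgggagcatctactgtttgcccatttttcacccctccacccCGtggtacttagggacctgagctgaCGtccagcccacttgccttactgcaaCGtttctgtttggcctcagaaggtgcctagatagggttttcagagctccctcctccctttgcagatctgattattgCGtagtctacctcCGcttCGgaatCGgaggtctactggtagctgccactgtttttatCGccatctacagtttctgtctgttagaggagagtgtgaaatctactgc

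The first window held 45 CG and the second 9. Of the 32851 promoter windows of the same length in the mouse table, 1.93% held at least 45 and 45.8% held at least 9. Windows were found for 8 of the 10 genes, 15 in all, with 1 to 45 CG and a median of 13, against a median of 7 over all windows. Which start was used, and whether it was methylated, was not measured.

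Cdkn1c (ENSMUSG00000037664, chr7:143458339-143461059) had 169.8, 4.31, 40.1, 102 and 12.0 CPM in the naive replicates and 71.9, 64.0, 26.6, 67.6 and 30.4 CPM in the SCVS replicates. The SCVS libraries all lay inside the range of the naive ones, whose highest and lowest were replicates 1 and 2. The means were 65.7 ± 69.8 CPM and 52.1 ± 21.7 CPM, with a log2 fold change of -0.41 (SE 0.84, exact permutation p = 0.730). Without naive replicate 1 the log2 fold change was 0.37. Kcnq1ot1, the noncoding RNA that silences this domain on the paternal chromosome, had 108 ± 52.8 CPM in naive and 81.5 ± 43.7 CPM in SCVS (log2 fold change -0.43, SE 0.49).

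Among 9974 tested genes with a mean of at least 10 CPM, those whose log2(CPM + 1) followed Cdkn1c most closely over the 10 libraries were Cyb5r1, Ubac2 and Vps51. Cyb5r1 had a Pearson's r of 0.944 and a Spearman's rho of 0.964, with an r of 0.907 after the 2 libraries farthest from the median of Cdkn1c were left out. Ubac2 had 0.919, 0.927 and 0.869 for the same measures, and Vps51 had 0.904, 0.778 and 0.703. These were picked as the highest of many and all rest on the same 10 libraries and their depth, so they are given as a description with no test.

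Dlk1 and Meg3 share an imprinted cluster on chromosome 12. Dlk1 encodes a transmembrane protein of the Notch ligand family that holds back adipocyte differentiation and is read from the paternal copy, while Meg3 is a noncoding RNA read from the maternal copy. Meg3 was above the floor in 7 libraries and Dlk1 in 3, and their highest naive value was in the same library.

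Meg3 (ENSMUSG00000021268, chr12:109540996-109571729) had 26.0, 0.0783, 0.0716, 1.33 and 583 CPM in naive replicates 1 to 5. It had 0, 29.9, 7.06, 0.907 and 5.61 CPM in the SCVS replicates. Naive replicate 5 held 7776 counts, 90.6% of the total over all 10 libraries, and the other naive libraries lay within the range of the SCVS ones. The means were 122 ± 258 CPM and 8.70 ± 12.2 CPM, with a log2 fold change of -3.96 (SE 2.20) and an exact permutation p of 0.675. Without naive replicate 5 the naive mean was 6.87 ± 12.8 CPM (SD, n = 4) and the log2 fold change was 0.18. That library was also the one with the highest neuronal and glial sum and the lowest pan-endothelial sum. SCVS replicates 4 and 5, with neuronal and glial sums of 1665 and 1826 CPM, had 0.907 and 5.61 CPM of Meg3. The sum joins neuronal with glial markers, and these libraries differed in the neuronal ones. In naive replicate 5, SCVS replicate 4 and SCVS replicate 5, Snap25 had 1538, 190 and 904 CPM. In the same order Tubb3 had 198, 0.0756 and 56.3 CPM, and Rbfox3 had 14.4, 13.9 and 0 CPM. The part of these cells in the Meg3 level was not tested.

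Rian, a noncoding RNA further along the same cluster, did not have its highest value in naive replicate 5. It had 28.6, 0, 0, 1.40 and 8.78 CPM in naive and 0.780, 4.93, 0, 3.55 and 19.03 CPM in SCVS, and its log2 fold change was -0.53 (SE 2.14). Mirg, at the far end of the cluster, had 59 counts in all, 58 of them in naive replicate 1. Meg3 overlaps Gm17639 on the opposite strand, and the reads of the overlap cannot be assigned.

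Dlk1 (ENSMUSG00000040856, chr12:109452485-109463336) had more than 3 counts in 3 libraries only. They were naive replicate 5 with 29 counts (2.18 CPM), SCVS replicate 1 with 7 and SCVS replicate 2 with 42 (3.45 CPM), and of the others naive replicate 4 had 1 count and the rest had 0. The means were 0.450 ± 0.965 CPM and 0.789 ± 1.503 CPM, and the log2 fold change of 0.60 (SE 2.08, exact permutation p = 0.722) rested on those 3. Without SCVS replicate 2 it was -1.80. Without naive replicate 5 the fitted value was 4.66, with all remaining naive libraries under the floor, so that it depends on the prior count of the fit.

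Plagl1, Peg3 and Mest are read from the paternal copy. Plagl1 encodes a zinc finger factor that can stop the cell cycle and regulates other imprinted genes, Peg3 encodes a large zinc finger protein tied to growth and maternal care, and Mest encodes a protein of the alpha/beta hydrolase fold that is abundant in embryonic mesoderm. Each of them had a high and a near-absent library in at least 1 group.

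Plagl1 (ENSMUSG00000019817, chr10:13090832-13131694) had 0, 10.2, 0.215, 40.7 and 125 CPM in the naive replicates and 64.9, 3.04, 35.4, 10.7 and 0.501 CPM in the SCVS replicates. Naive replicate 5 was again the highest, and the other libraries of the groups overlapped. The means were 35.3 ± 53.0 CPM and 22.9 ± 27.2 CPM (log2 fold change -0.65, SE 1.70, exact permutation p = 0.722). The log2 fold change was 0.86 without naive replicate 5.

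Peg3 (ENSMUSG00000002265, chr7:6703892-6730462) had 40.5, 16.9, 30.1, 11.5 and 82.1 CPM in the naive replicates and 40.0, 40.2, 0.0811, 71.7 and 21.7 CPM in the SCVS replicates. All libraries but SCVS replicate 3, which had 1 count, held at least 156 counts. The means, 36.2 ± 28.03 CPM and 34.7 ± 26.4 CPM, gave the log2 fold change nearest to 0 of the 10 genes (-0.13, SE 1.09, exact permutation p = 0.913). Without naive replicate 5 the log2 fold change was 0.42.

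Mest (ENSMUSG00000051855, chr6:30733506-30748466) had 76.6, 23.3, 26.8, 29.5 and 6.90 CPM in the naive replicates. It had 0, 34.2, 1.87, 10.4 and 79.8 CPM in the SCVS replicates. Its highest libraries were naive replicate 1 and SCVS replicate 5. SCVS replicate 5 also had the highest fibroblast, neuronal and glial, and erythroid marker sums of the SCVS group (1516, 1826 and 2949.6 CPM). Naive replicate 1 had the highest mural sum of all 10 libraries, 7803 CPM, of which the single gene Rgs5 gave 5664 CPM. SCVS replicate 5 had the lowest mural sum, 441 CPM. Naive replicate 2, with the highest fibroblast sum of all 10 libraries (1627 CPM), had 23.3 CPM of Mest. Naive replicate 5, with the highest neuronal and glial sum (3524 CPM), had 6.90 CPM. The part of any of these cells in the Mest level was not tested. The means were 32.6 ± 26.1 CPM and 25.3 ± 33.4 CPM (log2 fold change -0.44, SE 1.39, exact permutation p = 0.667). Without naive replicate 1 the log2 fold change was 0.20. Copg2, which overlaps Mest on the opposite strand, had 6.63 ± 14.3 CPM in naive and 34.8 ± 24.5 CPM in SCVS (log2 fold change 2.35, SE 1.84), and the shared reads cannot be assigned. The microRNAs that lie within Mest and Meg3 are shown in the same way for comparison with those of H19 and Igf2.
mmu-miR-335-5p (Mest): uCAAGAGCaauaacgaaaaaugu
mmu-miR-335-3p (Mest): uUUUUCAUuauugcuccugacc
mmu-miR-770-5p (Meg3): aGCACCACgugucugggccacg
mmu-miR-770-3p (Meg3): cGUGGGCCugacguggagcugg

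None of these seeds was shared with another of the microRNAs shown, and the entries Mir335 and Mir770 held 0 counts in all 10 libraries.

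Set side by side, 4 of the 10 log2 fold changes were above 0 and 6 below, with a median of -0.27 against -0.03 over all genes tested. The median turned positive without naive replicate 5 (0.11), without naive replicate 1 (0.16) and with limma voom (0.29). H19 and Igf2r were the only genes of the 10 whose estimate had the same sign in all 18 alternatives. The alternatives draw on the same libraries, so a constant sign is not independent evidence of a direction. The summed CPM of the 10 genes was 377, 156, 296, 353 and 855 in the naive replicates and 297, 310, 291, 252 and 182 in the SCVS replicates, and in naive replicate 5 most of the sum was Meg3.

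**Figure D3:**
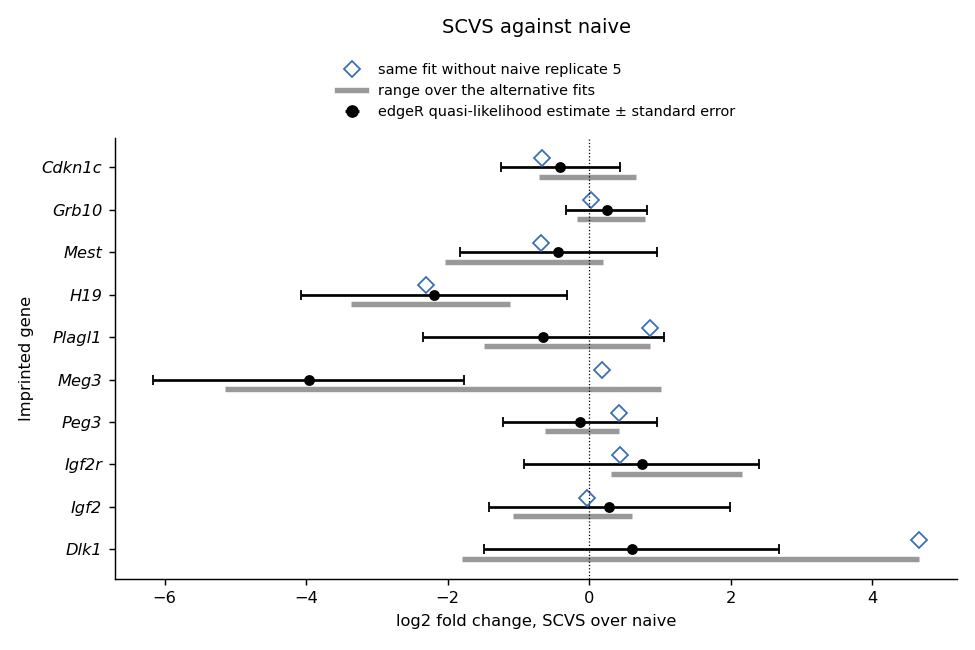
Log2 fold change of SCVS over naive for each imprinted gene from edgeR's quasi-likelihood fit, with its standard error as a bar, the same fit without naive replicate 5 as a diamond and the range over the alternative fits as a grey line. The grey line crosses 0 for all genes but H19 and Igf2r, and Meg3 moves from -3.96 to 0.18 without naive replicate 5.

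Other imprinted genes were read in the same fit. Of 57 genes known to be imprinted in at least 1 mouse tissue, 56 were found in the table and 35 were tested. With edgeR's quasi-likelihood test 0 of the 35 passed the adjusted p of 0.1, and DESeq2, limma voom and the likelihood ratio test also called 0. Of all genes tested these tools called 0%, 0.769%, 0.0202% and 0.256%. At an unadjusted p under 0.05 there was 1 of the 35, Tspan32, against 3.10% of all genes, which does not set the list apart. The log2 fold change was above 0 for 17 and below 0 for 18, with a median of -0.07. The most abundant was Cd81, a tetraspanin, at 2167 ± 277 CPM in naive and 2578 ± 536 CPM in SCVS (log2 fold change 0.20), followed by Gnas, which encodes a stimulatory G protein subunit, at 364 ± 113 and 512 ± 178 CPM (0.43). Tspan32, a tetraspanin of blood cells, was at 0 in all 5 naive libraries and had 0.993, 0, 0, 25.0 and 2.20 CPM in SCVS. Its mean in SCVS was at least 23.8-fold higher than the mean CPM that 3 counts per naive library would give, with an edgeR adjusted p of 0.998. SCVS replicate 4, which held most of its counts, also had the highest leukocyte marker sum of the 10 libraries, 3707 CPM, and the part of leukocytes was not tested. Commd1 had the smallest p among genes with a lower estimate, at 129.8 ± 59.3 and 87.9 ± 15.7 CPM (log2 fold change -0.60, SE 0.41).

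Of 29 genes of insulin-like growth factor and insulin signalling, 24 were tested. None was called by edgeR's quasi-likelihood test, and 0 had an unadjusted p under 0.05, against 3.10% of all genes. The other tools, with the shares of all genes given above, called 0. The log2 fold change was above 0 for 15 and below 0 for 9, with a median of 0.11. Igfbp7 and Igfbp3 encode secreted binding proteins of the pathway and were its most abundant genes in CPM, a scale that does not correct for length. Igfbp7 had 1620 ± 869 CPM in naive and 1848 ± 668 CPM in SCVS, and Igfbp3 had 820 ± 544 and 2025 ± 1253 CPM (log2 fold change 1.22, SE 0.85). Igfbp3 was at 9.08 CPM in naive replicate 5, the library with few endothelial markers. Igfbp2 had the smallest p of those with a higher estimate, at 4.73 ± 6.88 and 43.8 ± 49.4 CPM (log2 fold change 3.15, SE 1.93). Igf1r, the receptor through which IGF2 signals growth, had the smallest p of those with a lower estimate, at 140.5 ± 85.2 CPM in naive and 54.0 ± 35.02 CPM in SCVS. Its log2 fold change was -1.43 (SE 0.67), with an adjusted p of 1.00 in edgeR's test and overlapping groups.

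For the setting of Cdkn1c, 15 relatives and partners of the cyclin-dependent kinase inhibitors were read, and 13 were tested. Again 0 were called by edgeR's quasi-likelihood test and by the other tools, and 0 had an unadjusted p under 0.05, against 3.10% of all genes. There were 10 log2 fold changes above 0 and 3 below, with a median of 0.42. Ccnd3 (cyclin D3) had 174 ± 116 and 204 ± 127 CPM. Ccnd2 (cyclin D2) had 120.5 ± 51.9 CPM in naive and 233 ± 87.8 CPM in SCVS (log2 fold change 0.89, SE 0.43), with its lowest values in naive replicate 5 and SCVS replicate 3. Cdk4, the kinase that both cyclins bind, had 133 ± 42.8 and 104.6 ± 34.95 CPM (log2 fold change -0.40, SE 0.36).

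Among 19 factors that keep or erase imprints, 16 were tested, and 0 were called by edgeR's quasi-likelihood test and by the other tools. At an unadjusted p under 0.05 there were 0, against 3.10% of all genes. The log2 fold change was above 0 for 9 and below 0 for 7, with a median of 0.08. Tet3, an enzyme that oxidises methylated cytosine, was the only gene of the 4 lists whose groups did not overlap. It had 19.1, 38.1, 23.8, 33.7 and 31.2 CPM in naive and 40.7, 57.0, 79.1, 55.2 and 56.4 CPM in SCVS. The means were 29.2 ± 7.67 and 57.7 ± 13.8 CPM, the log2 fold change was 0.96 (SE 0.49) and edgeR's adjusted p was 1.00, and 0.628% of all genes tested also had groups that did not overlap. Arid4b had 109 ± 51.5 and 129 ± 53.7 CPM and Smchd1, a chromatin protein of imprinted clusters and the inactive X, had 86.1 ± 49.2 and 87.4 ± 55.4 CPM. Setdb1, a histone H3 lysine methyltransferase that works with zinc finger proteins at imprinted regions, had 31.0 ± 26.5 and 7.17 ± 7.44 CPM (log2 fold change -2.08, SE 1.71), with 0 counts in naive replicate 5.

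Markers of the cells the sort could hold also varied across the libraries. Summed lymphatic markers (7 genes) ran from 60.8 to 2747 CPM in naive, with a median of 1019, and from 439 to 3074 in SCVS, with a median of 1378. Blood endothelial markers (7 genes) ran from 313 to 10258 and from 5050 to 9112 CPM. Fibroblast markers (7 genes) ran from 55.5 to 1627 in naive (median 764) and from 18.5 to 1516 in SCVS (median 155), and mural markers (7 genes) from 791 to 7803 and from 441 to 5922. Neuronal and glial markers (8 genes) ran from 165 to 3524 and from 213 to 1826, and leukocyte markers (7 genes) from 7.96 to 376 and from 135 to 3707. Arachnoid barrier markers (6 genes) ran from 147 to 458 and from 143 to 509.8, osteolineage and chondrocyte markers (7 genes) from 87.9 to 481 and from 38.0 to 369, and erythroid markers (3 genes found) from 4.22 to 33.7 and from 1.89 to 2949.6 CPM. With edgeR's quasi-likelihood test 0 of the 60 markers tested passed the adjusted p of 0.1, as with limma voom and the likelihood ratio test, and DESeq2 called 2, the mural marker Acta2 (lower) and the leukocyte marker Ptprc (higher). At an unadjusted p under 0.05, 2 of 6 tested fibroblast markers and 1 of 7 mural markers were lower, and 1 of 6 leukocyte and 2 of 3 erythroid markers were higher, beside 3.10% of all genes in either direction. DESeq2 called 0.769% of all genes. Their part in the levels of the imprinted genes was not tested.

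**Figure D4:**
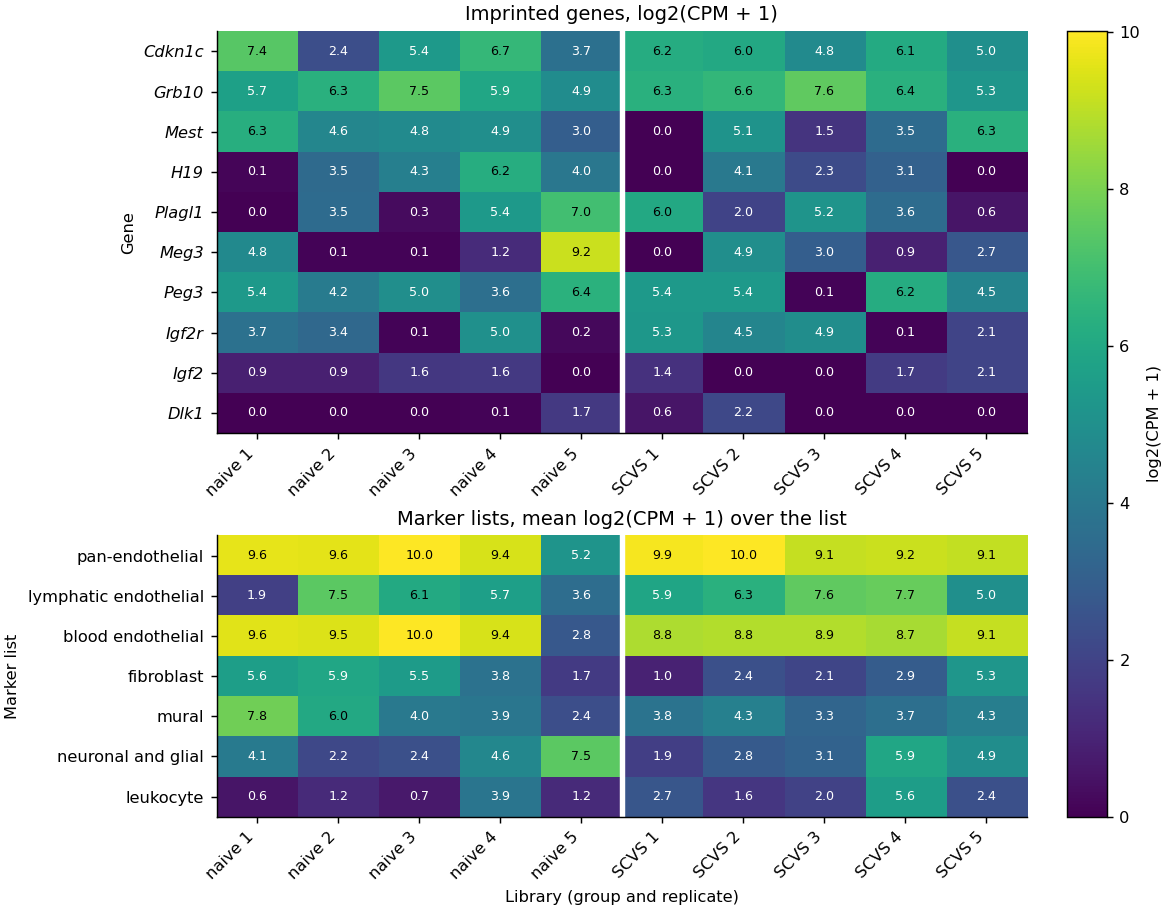
Colour and printed values give log2(CPM + 1) of each imprinted gene (top) and the mean log2(CPM + 1) of 7 marker lists (bottom) in the 10 libraries, naive left and SCVS right of the white line. Naive replicate 5 has the highest Meg3 and neuronal and glial values and the lowest pan-endothelial and blood endothelial values, and Grb10 and Cdkn1c are filled in across all libraries.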

How the data were processed

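RNA-seq was analysed from 5 naive and 5 SCVS libraries, each amplified with a whole-transcriptome kit. The authors deposited raw counts per gene and library, with no normalization. The submitters' processing notes name cutadapt 1.9.1, HISAT2 2.0.1, HTSeq 0.6.1, DESeq2 and GRCm38, while the methods of the study name mm9, so the build behind the counts is unsure. The use of strand is not given in the sources used here. Positions printed are those of RefSeq GRCm38.p6, and exon lengths and overlaps are from GENCODE M1, in which 32589 of 55401 identifiers (58.8%) were found.

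CPM were computed from column totals. Depth was 9984743 to 14094155 counts per library, and the floor of 3 counts covers counting error only, as amplified reads are not independent molecules. The low-count filter kept a gene if 3 or more libraries each held over 5 counts. The genes kept were tested with edgeR 4.0.16 (R 4.3.3, quasi-likelihood, TMM, Benjamini-Hochberg, adjusted p under 0.1) and with an exact two-sided permutation test of mean CPM. Alternatives were DESeq2 1.42.0, limma 3.58.1 with voom, edgeR's likelihood ratio test, other scalings and filters, a replicate block, and leaving out each library. Python 3.11.15, NumPy 2.4.6, SciPy 1.17.1 and Matplotlib 3.10.9 were used.

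The 10 genes and the other lists were chosen with earlier results of these data known. From each other list the 2 most abundant genes, any gene called and the smallest p in each direction were named, with 3 genes most like the member highest per kb and a few partners of the same loci. The partners (Rian, Mirg, Airn, Kcnq1ot1 and Copg2) were added for their position, outside that rule. Same-numbered libraries are pools of different animals and were not taken as pairs. No pair of replicates differed by less than sampling noise. The authors' other experiments were not analysed here.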

Additional observations from a re-analysis of the deposited data

Results flagged for a closer look

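Of 20 groups of 5 libraries, 1 per gene and condition, 5 held a library far from the other 4 by the size of the gap relative to the range of the group, and chance marks about 1 group in 20 where values are normally distributed. Over all genes tested the same gap was found in 22.3% of groups, so 5 of 20 (25.0%) does not set the imprinted genes apart. In naive libraries these were H19 in replicate 4 at 74.2 CPM, Meg3 in replicate 5 at 583 CPM and Dlk1 in replicate 5 at 2.18 CPM. In SCVS libraries these were Meg3 and Dlk1, both in replicate 2, at 29.9 and 3.45 CPM. The gap to the nearest other library was 0.744 of the range for H19, 0.956 and 0.764 for Meg3, and 0.966 and 0.856 for Dlk1. Meg3 and Dlk1, neighbours on chromosome 12, stood out in the same library of each group.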

How the results depend on the processing

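Over the whole table the count of genes called was 0 in the quasi-likelihood test and 114 with DESeq2, 3 with limma voom and 38 with edgeR's likelihood ratio test, and none of the 10 imprinted genes or of the other 4 lists was called in any alternative. With limma voom the log2 fold change turned to -1.08 for Igf2, 1.01 for Meg3, 0.66 for Cdkn1c and 0.72 for Plagl1. With the replicate block 0 genes were called, Igf2 turned to -0.81 and Cdkn1c to 0.36, no call changed, and 266 genes had an unadjusted p under 0.05 against 460 without it. Same-numbered libraries correlated at -0.017 to 0.149 in their deviations from the group means, and 4 of 5 numbers correlated best with themselves. Leaving out each library gave -0.25 to 0.61 for Igf2, -5.15 to 0.18 for Meg3, -1.80 to 4.66 for Dlk1, -0.63 to 0.42 for Peg3, -0.71 to 0.37 for Cdkn1c, -1.48 to 0.86 for Plagl1, -1.63 to 0.20 for Mest and -0.18 to 0.79 for Grb10. On the mean of log2(CPM + 1) the direction turned for Cdkn1c (exact permutation p = 0.611) and Plagl1 (exact permutation p = 0.873). The cause of these changes was not tested. H19 and Igf2r kept their direction in all 18 alternatives, which draw on the same libraries. Their values with each library left out ran from -2.98 to -1.12 for H19 and from 0.30 to 1.67 for Igf2r. Dlk1 has 17, because the filter of 1 CPM in 5 libraries removes it. More counts did not always give a smaller error, as the standard error of Meg3, with up to 7776 counts in a library, was 2.20 and that of Igf2, with at most 32, was 1.70.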
